A study of Mus musculus with 2 samples.

Results

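Cholesterol is built in the liver from acetyl-CoA by a long chain of enzymes, first to mevalonate, then through isoprenoids to squalene, and then through lanosterol to cholesterol. The transcription factor SREBP2, the product of *Srebf2*, switches these genes on when membrane sterol is low: SCAP carries it out of the endoplasmic reticulum, and the INSIG proteins hold it back when sterol is plentiful. Hepatocytes also move sterol between membranes, store it as cholesteryl ester and pump it into bile through ABCG5 and ABCG8. A fixed set of 27 genes with these roles was read in mRNA sequencing of mouse liver: 19 synthesis enzymes, 4 regulators, and 4 genes of sterol transfer, esterification and export. The set holds no lipoprotein receptor, so uptake is described through a related list. Each symbol was looked up in the first column of both deposited tables, and all 27 were found among the 53241 distinct symbols.

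One liver library was from a control sample and the other from an iFIRKO sample, that is, Adipoq-CreERT2 with floxed *Insr*, in which the adiponectin promoter drives a tamoxifen-inducible Cre that removes the insulin receptor from adipocytes and is not meant to act in the liver itself. The labels call the control WT, whereas the methods describe it as floxed at *Insr* without Cre. Both were male livers, from mice given tamoxifen at 7 weeks of age, 100 mg/kg for 5 days, and sampled 3 days after the last dose. Tamoxifen is known to bind EBP, one of the enzymes described here, and both groups received it. Whether a library came from 1 mouse or a pool is not given in the sources used here. With 1 library per genotype, no difference has a replicate check and no p-value was computed.

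Values are normalized reads, the deposited log2 values returned to the linear scale, and they are given as control against iFIRKO throughout. A fold change is iFIRKO over control with 4.18 normalized reads added to each. The genes tested are the 13400 with at least 41.8 normalized reads, equal to a CPM (reads scaled to a fixed library total) of 1, in 1 or both libraries. A gene is called lower or higher here when it differed by more than 1.5-fold, a log2 fold change beyond 0.58. The 95% intervals are exact Clopper-Pearson intervals on estimated read pairs and cover counting error only, so they compare these libraries and not the genotypes. Estimated depth was 21138500 read pairs for the control library and 20652800 for the iFIRKO library. *Insr* itself stood at 4246 against 3692 normalized reads (log2 fold change -0.20, interval -0.29 to -0.11) in these livers.

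The cholesterol synthesis pathway was lower in the iFIRKO liver along most of its length. All 27 genes passed the minimum in both libraries, 10 of them were called lower and 0 higher. Among all genes tested, 7.28% were called lower and 4.46% higher, and among the 8181 genes whose mean level lay within the range of the 27, from 382 to 24111 normalized reads, 3.25% were called lower and 2.03% higher. The median log2 fold change was -0.47 over the 27 genes and -0.56 over the 19 enzymes, beside 0.0075 over all genes tested and 0.024 over the genes of like level. Of the 27 intervals, 20 lay below 0, 1 lay above 0 and 6 held 0. The enzymes accounted for 9 of the 10 lower genes, and summed over the 19 of them the libraries held 166955 against 114081 normalized reads, so that the iFIRKO total was 68.3% of the control total, a log2 ratio of -0.55 (interval -0.56 to -0.53). The 8 other genes, summed in the same way, stood at 97.0% of the control total. In that sum *Insig1* (14607 against 10544) and *Insig2* (20689 against 24880.1) weighed most and largely offset each other. Of these 8 genes, 4 had intervals below 0, 1 had an interval above 0 and 3 had intervals that held 0. Their median log2 fold change was -0.11.

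**Figure D1:**
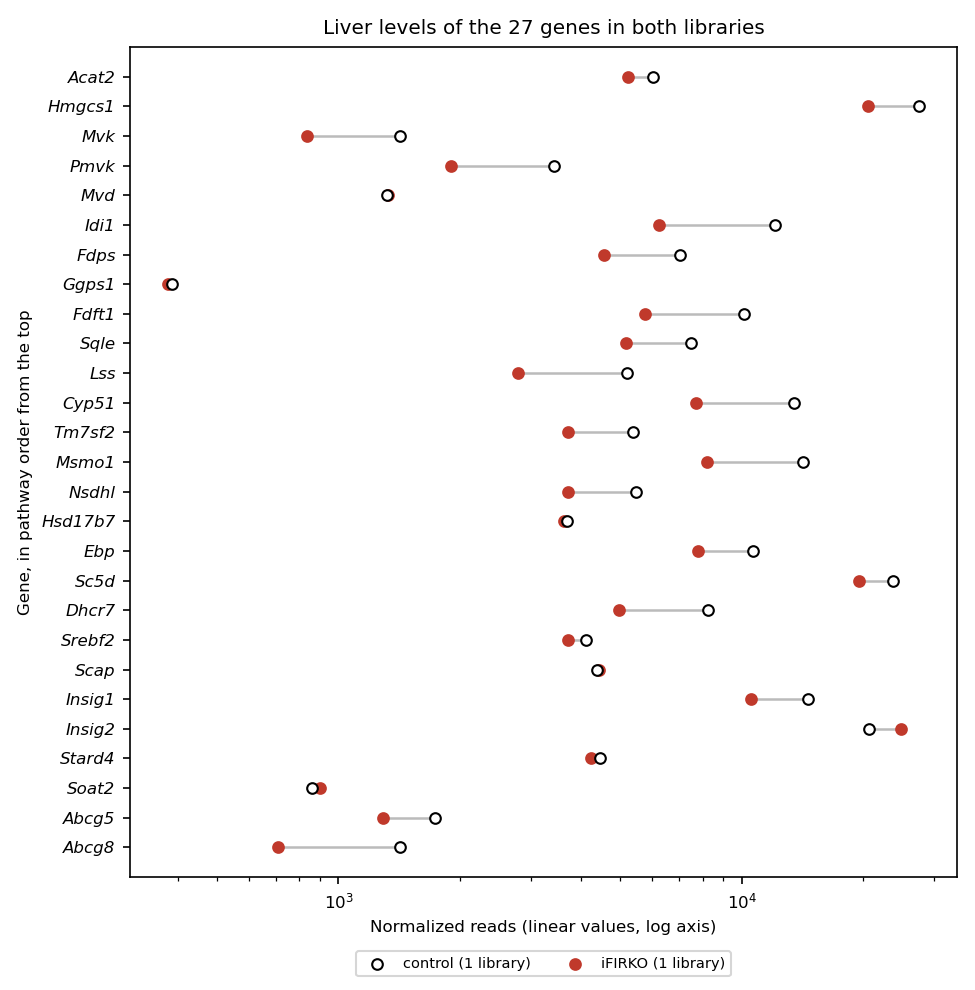
Normalized reads (log axis) of the 27 genes in control (open circles) and iFIRKO (filled circles), 1 library each, in pathway order from the top. Most enzymes lie to the left of their control value, whereas *Mvd*, *Ggps1*, *Hsd17b7* and *Scap* nearly coincide and *Insig2* lies to the right.

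Promoter sequence was read where RefSeq annotation on GRCm38.p6 gave a window of 250 bases before to 50 bases after a start site. This was the case for 22 of the 27 genes. *Fdps*, *Fdft1*, *Sqle*, *Stard4* and *Soat2* had no window, and of these *Fdps* and *Fdft1* were called lower. Both strands were searched for TCACNCCAC, a form of the sterol regulatory element bound by SREBP, for the looser TCACNNCAC, which includes it, for CCAAT, the box bound by NF-Y, and for GGGCGG, the GC box bound by Sp1. NF-Y and Sp1 are known partners of SREBP at sterol-regulated promoters. The windows printed here are those of *Idi1*, the enzyme with the lowest fold change, of *Mvd*, whose values nearly coincided, of *Hmgcs1*, the sole gene of the 22 with a strict match, and of *Msmo1*, where a loose match overlaps a CCAAT box. Capitals mark matches to TCACNNCAC, CCAAT or GGGCGG on either strand, and each sequence is given 5′ to 3′ on the strand of its gene.
*Idi1*, chr13:8885356-8885655, forward strand: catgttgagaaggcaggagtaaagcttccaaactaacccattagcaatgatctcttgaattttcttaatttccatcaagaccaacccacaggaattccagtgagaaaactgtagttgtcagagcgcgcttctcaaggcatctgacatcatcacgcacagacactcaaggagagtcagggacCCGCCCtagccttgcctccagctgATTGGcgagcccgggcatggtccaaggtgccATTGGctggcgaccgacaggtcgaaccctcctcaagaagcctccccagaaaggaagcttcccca
*Mvd*, chr8:122443373-122443672, reverse strand: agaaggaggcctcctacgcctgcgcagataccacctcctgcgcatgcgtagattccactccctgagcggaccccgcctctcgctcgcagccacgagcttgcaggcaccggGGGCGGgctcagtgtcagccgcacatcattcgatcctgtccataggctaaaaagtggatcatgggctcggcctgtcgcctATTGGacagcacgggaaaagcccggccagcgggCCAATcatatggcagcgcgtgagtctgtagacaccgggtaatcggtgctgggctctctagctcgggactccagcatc
*Hmgcs1*, chr13:119690101-119690400, forward strand: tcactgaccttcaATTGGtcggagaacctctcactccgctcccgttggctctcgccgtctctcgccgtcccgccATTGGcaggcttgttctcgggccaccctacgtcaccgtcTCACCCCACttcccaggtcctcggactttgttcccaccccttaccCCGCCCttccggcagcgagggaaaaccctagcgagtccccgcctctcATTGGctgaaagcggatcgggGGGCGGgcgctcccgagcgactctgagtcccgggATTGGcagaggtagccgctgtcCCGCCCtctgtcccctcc
*Msmo1*, chr8:64733529-64733828, reverse strand: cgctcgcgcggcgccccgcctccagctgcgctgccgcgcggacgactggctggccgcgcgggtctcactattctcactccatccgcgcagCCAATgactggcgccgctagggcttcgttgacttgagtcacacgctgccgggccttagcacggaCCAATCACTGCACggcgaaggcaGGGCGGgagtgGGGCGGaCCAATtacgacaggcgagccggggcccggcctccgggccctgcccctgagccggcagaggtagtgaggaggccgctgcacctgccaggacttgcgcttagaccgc

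The strict sterol element was found in 1 of the 22 genes, beside 1.47% of the tested genes with a window and 1.24% of all 32851 windows. In *Hmgcs1* it began 137 bases before the start site. The loose form was found in 4 of the 22 genes, *Hmgcs1*, *Msmo1*, *Hsd17b7* and *Dhcr7*, beside 4.50% of the tested genes and 3.77% of all windows. These 4 genes did not share a level of change, since *Msmo1* and *Dhcr7* were called lower, *Hmgcs1* was within 1.5-fold, and the interval of *Hsd17b7* held 0. CCAAT boxes were found in 20 of the 22 genes, beside 43.3% of the tested genes and 37.4% of all windows, and GC boxes in 18 of the 22, beside 66.5% and 35.7%. The windows of *Idi1* and *Mvd* each held 2 CCAAT boxes, 1 GC box and no loose sterol element. These genes were picked for their unlike log2 fold changes, so the gap of 0.96 (interval 0.79 to 1.13) follows from that choice. Any link between motifs and fold changes was not tested. A match is a description of the letters in these windows and does not show binding. Nor does a missing match show that a gene lacks a sterol element, since only these forms and windows were searched. Genes with several start sites had several windows to match in.

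**Figure D2:**
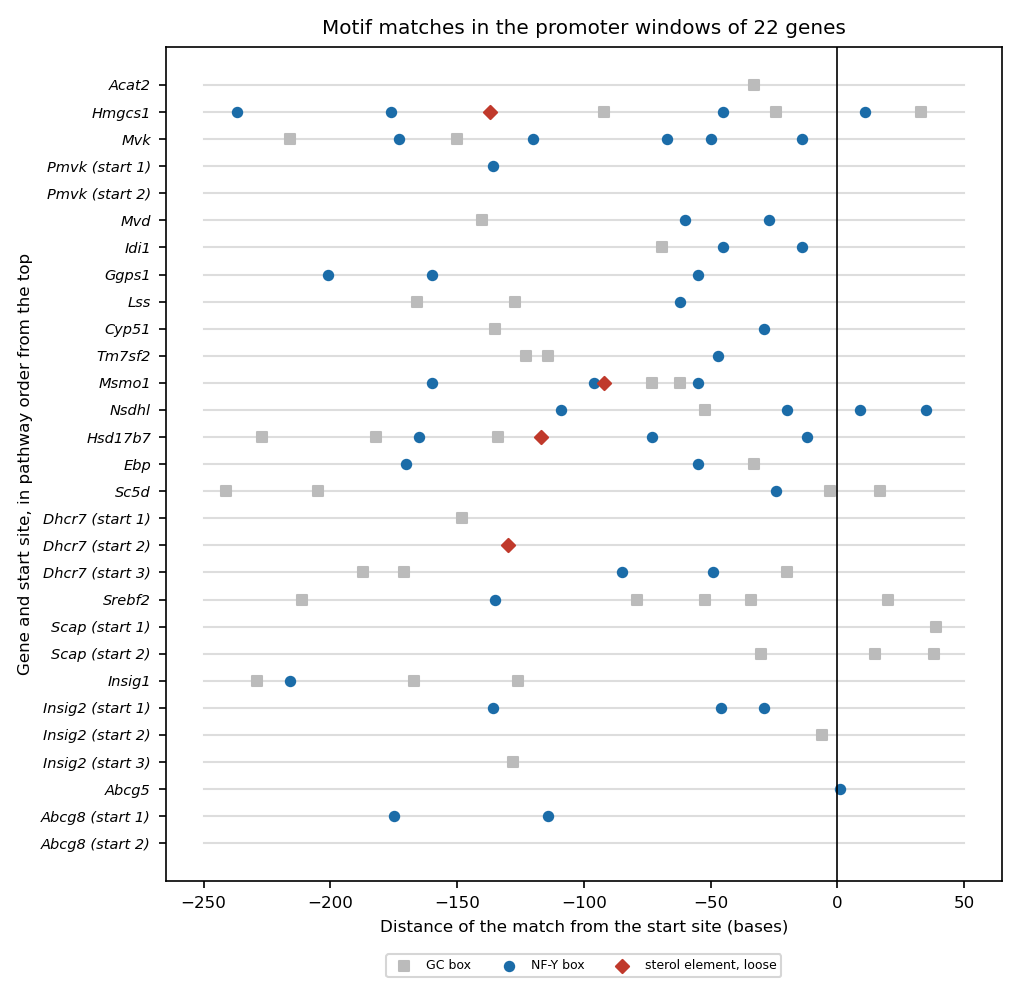
Distance in bases of each motif match from the RefSeq start site (position 0) in the 29 windows of 22 genes, with CCAAT (NF-Y) boxes, GC boxes and loose sterol elements marked separately. The 4 loose sterol elements lie between 92 and 137 bases before a start site, and CCAAT boxes are spread over 20 genes.

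In the first stretch of the pathway, from acetyl-CoA to mevalonate and its phosphates, 2 of 5 enzymes were called lower and the median log2 fold change was -0.42. *Acat2*, the cytosolic thiolase that joins acetyl-CoA units, stood at 6041 against 5222 normalized reads (log2 fold change -0.21, interval -0.29 to -0.13). *Hmgcs1*, the cytosolic HMG-CoA synthase (chromosome 13 of GRCm38, 119690379 to 119708260), stood at 27607 against 20614 normalized reads (log2 fold change -0.42, interval -0.46 to -0.38). Both enzymes of these early steps were below their control values by less than 1.5-fold. For *Mvk*, mevalonate kinase, the libraries held 1419 against 838 normalized reads (log2 fold change -0.76, interval -0.94 to -0.58), and the upper bound of that interval lay marginally within the threshold. *Pmvk*, which adds the next phosphate, was lower at 3433 against 1897 normalized reads (log2 fold change -0.85, interval -0.97 to -0.74). *Mvd*, the decarboxylase that completes isopentenyl pyrophosphate, did not follow them. Its level was 1321 against 1325 normalized reads (log2 fold change 0.0047, interval -0.15 to 0.16), so no difference could be detected at this depth. The log2 fold change of *Mvd* was 0.86 above that of *Pmvk*, the gene of the step before it, with an interval for counting error from 0.66 to 1.06. That comparison was made with the values known.

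Among the 5 enzymes from isopentenyl pyrophosphate to squalene epoxide, 3 were called lower, and the median of -0.63 was the lowest of the 3 stretches. *Idi1*, the isomerase that turns isopentenyl pyrophosphate into its reactive partner (chromosome 13, 8885501 to 8892451), was lower at 12087 against 6243 normalized reads (log2 fold change -0.95, interval -1.02 to -0.89), or 51.7% of the control level. This was the lowest fold change of the enzymes and stood at percentile 2.29 of all genes tested. *Fdps*, which makes farnesyl pyrophosphate, was lower at 7044 against 4563 normalized reads (log2 fold change -0.63, interval -0.70 to -0.55), with an interval that crossed the threshold. Its exons share 1124 bases on the same strand with the annotated gene *Gm43738*, which was listed at 7270.4 against 4822 normalized reads, so the value of *Fdps* alone is uncertain. *Ggps1*, which draws farnesyl pyrophosphate off towards geranylgeranyl pyrophosphate and away from sterol, stood at 386 against 377 normalized reads (log2 fold change -0.034, interval -0.33 to 0.26), the widest interval of the 27 genes. *Fdft1*, squalene synthase and the first enzyme committed to sterol (chromosome 14, 63145150 to 63179578), was lower at 10118 against 5764 normalized reads (log2 fold change -0.81, interval -0.88 to -0.75). *Sqle*, squalene epoxidase, lay just short of the threshold at 7475 against 5179.9 normalized reads (log2 fold change -0.53, interval -0.60 to -0.46).

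All 9 enzymes from lanosterol to cholesterol had a log2 fold change below 0, and 4 of them were called lower, with a median of -0.56. *Lss*, which closes the sterol rings (chromosome 10, 76531588 to 76557138), was lower at 5187 against 2792 normalized reads (log2 fold change -0.89, interval -0.99 to -0.80). *Cyp51*, the lanosterol demethylase (chromosome 5, 4081145 to 4104746), was lower at 13474 against 7692 normalized reads (log2 fold change -0.81, interval -0.87 to -0.75). The next demethylation is shared by *Msmo1*, *Nsdhl* and *Hsd17b7*, and these differed in their values. The oxidase gene *Msmo1* was lower at 14169 against 8184 normalized reads (log2 fold change -0.79, interval -0.85 to -0.74). For the dehydrogenase gene *Nsdhl*, 5466 against 3708 normalized reads (log2 fold change -0.56, interval -0.65 to -0.47) was the value nearest to the threshold from inside. *Hsd17b7*, the reductase gene, stood at 3697 against 3621 normalized reads (log2 fold change -0.030, interval -0.12 to 0.065).

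The other 4 enzymes of this stretch act on the double bonds of the sterol. *Tm7sf2*, a sterol reductase gene, stood at 5385 against 3721 normalized reads (log2 fold change -0.53, interval -0.62 to -0.45). The isomerase gene *Ebp* stood at 10677 against 7801 normalized reads (log2 fold change -0.45, interval -0.51 to -0.39). *Sc5d*, the desaturase, had one of the smaller differences at 23702 against 19561 normalized reads (log2 fold change -0.28, interval -0.32 to -0.24). *Dhcr7*, which removes the last double bond of the 7-dehydrocholesterol route, was the called gene among them at 8268 against 4978 normalized reads (log2 fold change -0.73, interval -0.80 to -0.66). Lower genes were thus found in each of the 3 stretches, and 1 enzyme in each, *Mvd*, *Ggps1* and *Hsd17b7*, had an interval that held 0.

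**Figure D3:**
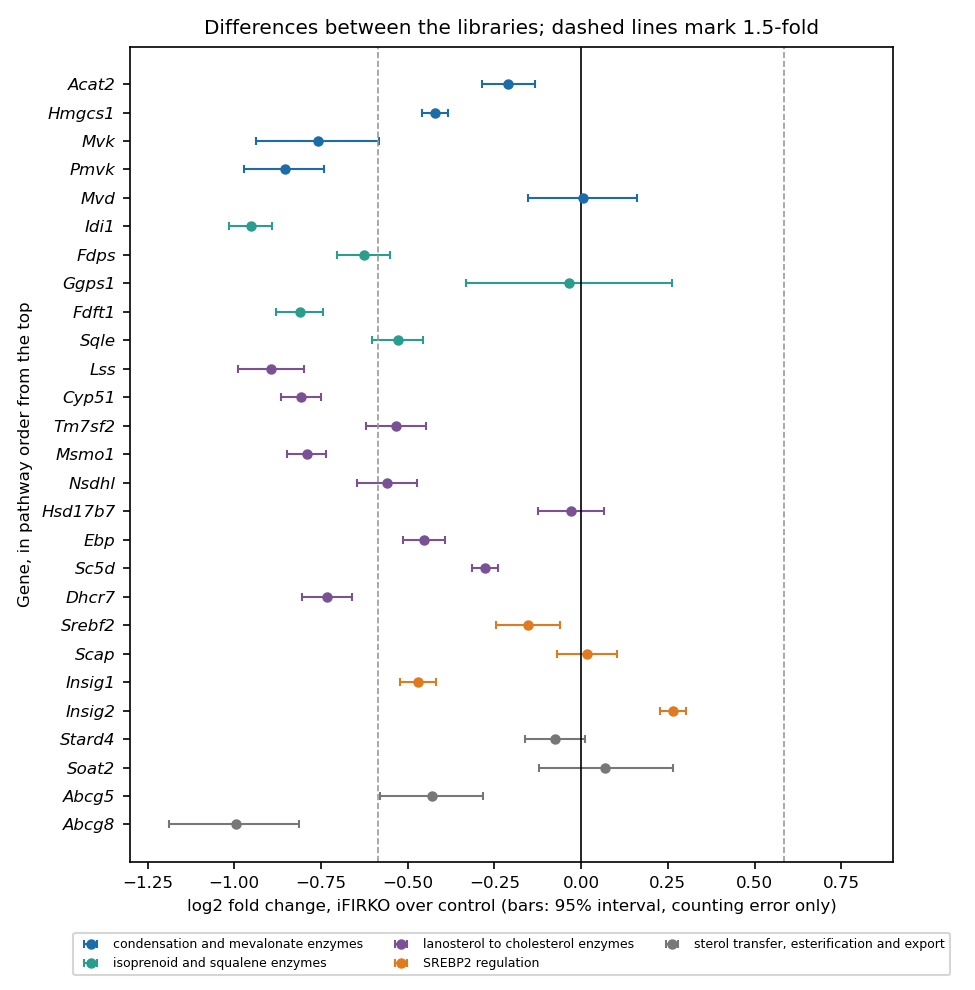
log2 fold change of iFIRKO over control for the 27 genes in pathway order, with 95% intervals for counting error; colours mark the 5 role groups and dashed lines 1.5-fold. The 10 genes past the dashed line run from *Abcg8* at -0.996 to *Fdps* at -0.63, and *Insig2* is the sole gene whose interval lies above 0.

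The 4 genes that regulate the pathway were not called in either direction, and summed they stood at 99.5% of the control total. *Srebf2* itself stood at 4119 against 3705 normalized reads (log2 fold change -0.15, interval -0.24 to -0.062). *Scap*, the escort of SREBP2, stood at 4385 against 4439 normalized reads (log2 fold change 0.017, interval -0.068 to 0.10). The INSIG genes, the most abundant of the 4, went in different directions, so that their differences largely offset each other in that total. *Insig1*, known as a target of SREBP (chromosome 5, 28071363 to 28078662), stood at 14607 against 10544 normalized reads (log2 fold change -0.47, interval -0.52 to -0.42). *Insig2* (chromosome 1, 121304353 to 121332589), known for a liver transcript that insulin represses, stood at 20689 against 24880.1 normalized reads (log2 fold change 0.27, interval 0.23 to 0.30). The authors reported raised serum insulin with insulin resistance in iFIRKO mice, and a part of insulin in this difference was not tested. Reads of *Insig2* were 1.42 times those of *Insig1* in control and 2.36 times in iFIRKO, and the log2 fold change of *Insig1* minus that of *Insig2* was -0.74 (interval -0.80 to -0.67). Their longest annotated coding transcripts have the same length of 2697 bases, so these ratios also compare the genes per length. RefSeq gave *Insig2* 3 start sites, and the tables hold 1 value per symbol, so its transcripts cannot be told apart here.

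Among the genes that move, store and export sterol, the exporters showed the larger differences. *Stard4*, a sterol carrier of the cytosol, stood at 4465 against 4236 normalized reads (log2 fold change -0.076, interval -0.16 to 0.010). *Soat2*, which esterifies cholesterol in hepatocytes, stood at 859 against 902 normalized reads (log2 fold change 0.069, interval -0.12 to 0.27). Both intervals held 0. *Abcg5* and *Abcg8* encode the partner subunits of the transporter that exports sterol into bile, and both were below their control values. *Abcg5* was within 1.5-fold at 1738 against 1289 normalized reads (log2 fold change -0.43, interval -0.58 to -0.28). *Abcg8* was lower at 1418 against 709 normalized reads (log2 fold change -0.996, interval -1.19 to -0.81), the lowest fold change of the 27 genes. The log2 fold change of *Abcg8* minus that of *Abcg5* was -0.57 (interval -0.81 to -0.33). The genes lie head to head on chromosome 17, where *Abcg5* runs on the reverse strand from 84658234 to 84683011 and RefSeq places a start of *Abcg8* 110 bases away at 84683121, with another at 84676302 inside *Abcg5*. Their annotated exons share 82 bases on opposite strands, and reads from these cannot be assigned without strand. The window of the nearer *Abcg8* start is printed because it covers the stretch between both genes. Capitals again mark the motifs, here CCAAT alone, since the window holds no loose sterol element and no GC box.
*Abcg8*, chr17:84682871-84683170, forward strand: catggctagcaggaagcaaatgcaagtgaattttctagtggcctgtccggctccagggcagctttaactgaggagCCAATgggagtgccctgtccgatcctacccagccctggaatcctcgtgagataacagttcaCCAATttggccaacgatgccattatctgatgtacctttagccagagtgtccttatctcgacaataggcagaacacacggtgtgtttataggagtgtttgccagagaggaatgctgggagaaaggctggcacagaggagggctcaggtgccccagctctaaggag

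Levels can be set between genes only per length, here as normalized reads per kilobase of the longest annotated coding transcript. On that scale *Hmgcs1* was highest in the control library, at 7969.8 reads per kilobase, and *Insig2* was next at 7671. In the iFIRKO library this pair stood the other way round, with 9225 for *Insig2* and 5951 for *Hmgcs1*. *Msmo1* had rank 3 in the control library at 6932 and rank 5 in the iFIRKO library at 4004 reads per kilobase, while *Ggps1* was lowest in both at 91.0 against 88.9. The choice of transcript sets these per-length levels but not the fold changes.

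**Figure D4:**
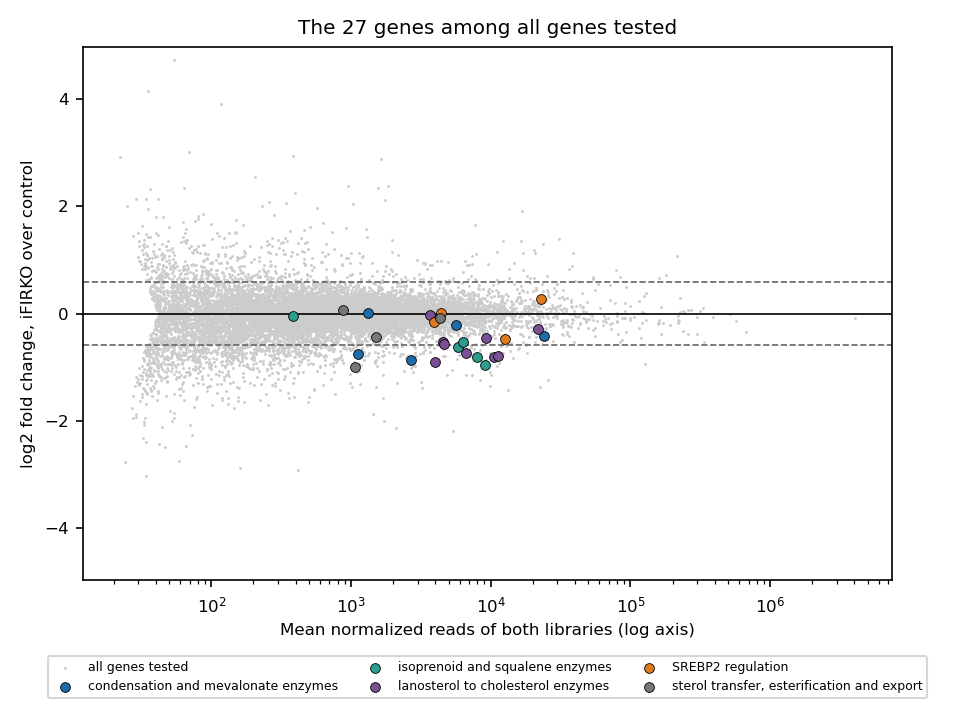
log2 fold change (iFIRKO over control) against mean normalized reads (log axis) for the 13400 genes tested (grey) and the 27 genes, coloured by role; dashed lines mark 1.5-fold. Most enzymes lie below 0, and the median of all genes tested is 0.0075.

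Several exons overlap other genes, and no source used here says whether reads were counted by strand, although the library kit marks it. *Fdft1* shares 774 exon bases with *Ctsb* on the opposite strand, which had 34169 against 30349 normalized reads. The exons of *Tm7sf2* share 532 bases on the same strand with *Vps51*, listed at 646 against 739. *Ggps1* shares 257 bases with *Arid4b*, and *Cyp51* shares 166 with *Akap9*, both on the opposite strand. The separate values of these genes are uncertain to that extent, and the remaining overlaps were with genes listed at 3.97 normalized reads or fewer or not matched to a row.

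Other genes of the sterol machinery were read from lists chosen by role. Among all genes tested, 7.28% were called lower and 4.46% higher. Among 12 genes of SREBP processing and sterol-regulated protein degradation, none was called in either direction, and the median log2 fold change was 0.0064. *Pgrmc1*, a heme-binding membrane protein, stood at 43849.5 against 47567 normalized reads (0.12), and *Aup1*, a protein of lipid droplets and of protein degradation, at 4725 against 4648 (-0.024). The genes with the largest differences were *Erlin1* at -0.39 (2449.9 against 1873), *Ube2g2* at 0.33 (1366 against 1717) and *Rnf139* at -0.20 (1833 against 1596), all within 1.5-fold.

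Of 9 genes of LXR, the nuclear receptor for oxysterols, and of cholesterol efflux, 2 were called lower and none higher. The shares over all genes tested were 7.28% lower and 4.46% higher. The median log2 fold change of the 9 genes was -0.053. *Scarb1*, the receptor through which hepatocytes take cholesteryl ester from high-density lipoprotein, was lower at 6672 against 4267 normalized reads (log2 fold change -0.64, interval -0.72 to -0.57). *Abcg1*, a sterol exporter, was lower at 372 against 207 normalized reads (log2 fold change -0.83, interval -1.20 to -0.49). Both of these intervals reached within 1.5-fold. *Mylip*, an LXR target that promotes receptor breakdown, was at -0.43 (326 against 242). *Abca1*, the main exporter to apolipoprotein A-I, stood at 7775 against 7493 (-0.053), *Rxra*, the partner receptor of LXR, at 14902 against 14396 (-0.050), and *Lcat*, which esterifies cholesterol in plasma, at 12960.4 against 12766 (-0.022).

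Among 11 genes of lipoprotein uptake and lysosomal sterol handling, 1 was called lower and none higher, with a median of -0.044. That count is near the share of all genes tested that were called lower, 7.28%. *Lrp1*, a large endocytic receptor of lipoprotein remnants, stood at 39632 against 39388 normalized reads (log2 fold change -0.0089, interval -0.037 to 0.020). *Lipa*, the acid lipase that frees cholesterol in lysosomes, stood at 12445 against 12708 (0.030), and the lysosomal membrane protein gene *Lamp1* at 28864 against 29041 (0.0088). The called gene was *Gramd1b*, a sterol carrier at membrane contacts, at 131 against 80.2 normalized reads (log2 fold change -0.68, interval -1.31 to -0.12). *Soat1*, the esterifying enzyme of macrophages, was at -0.56 (412 against 279), and *Npc2*, which binds cholesterol in lysosomes, at -0.49 (3774 against 2695).

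Fatty acid synthesis genes, many of them targets of the related factor encoded by *Srebf1*, mostly stood on the other side of 0. In a list of 12 lipogenesis genes 6 were called higher and 1 lower, with a median log2 fold change of 0.59. Of the 19 cholesterol enzymes, 0 were called higher and 9 lower. Over all genes tested, 4.46% were called higher and 7.28% lower. *Fasn*, fatty acid synthase, was higher at 41461 against 66890.3 (0.69), the elongase gene *Elovl6* at 4969 against 10702 (1.11), the malic enzyme gene *Me1* at 6884 against 17594 (1.35) and the desaturase gene *Scd1* at 135298 against 223079 (0.72). *Thrsp*, a lipogenic regulator, was within 1.5-fold at 27929 against 37922 (0.44). The called lower gene was *Acss2*, which makes acetyl-CoA from acetate and is known as a target of SREBP, at 12384 against 7448 normalized reads (log2 fold change -0.73, interval -0.79 to -0.67). The ratio of *Srebf2* to *Srebf1* reads was 0.340 in control against 0.346 in iFIRKO, and their log2 fold changes differed by 0.023 (interval -0.083 to 0.13). *Srebf1* itself was within 1.5-fold at 12113 against 10720.5 normalized reads (log2 fold change -0.18, interval -0.23 to -0.12). Whether either factor had a part in the differences of these lists was not tested.

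**Figure D5:**
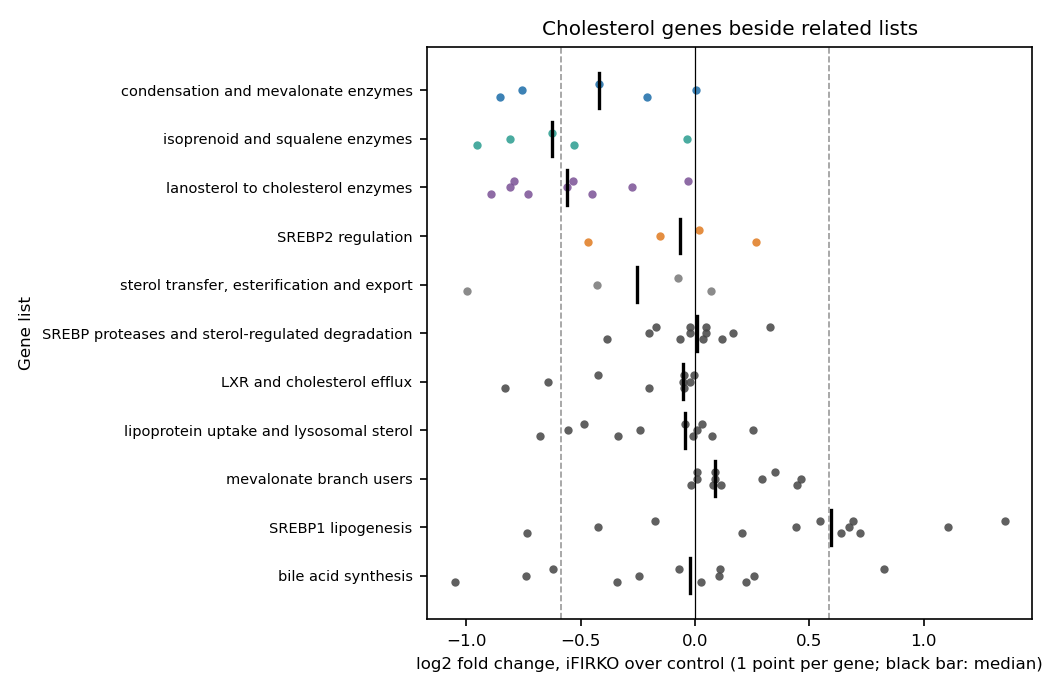
log2 fold change of iFIRKO over control, 1 point per gene, for the 5 role groups of the 27 genes (the upper lines) and 6 related lists (the lower lines), with the median as a black bar and dashed lines at 1.5-fold. The 3 enzyme groups have medians of -0.42, -0.63 and -0.56, and the lipogenesis list has a median of 0.59.

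Markers of other liver cells moved between the libraries too. Their counts stand beside 7.28% lower and 4.46% higher among all genes tested. All 10 Kupffer cell and macrophage markers were below their control values and 7 were called lower (median -0.62, summed CPM 926 against 597). All 8 endothelial markers were also below their control values, and 2 were called lower (median -0.45, summed CPM 313 against 233). By contrast, 7 of 8 erythroid markers were called higher (summed CPM 323 against 648). The 5 tested of 10 lymphocyte and neutrophil markers were all called lower (summed CPM 18.7 against 6.86). No marker of these lists was at 0 in either library. Markers of hepatocytes, the cells that make most liver cholesterol, had a median of -0.043 with 1 of 8 called, periportal genes a median of -0.084 with none of 8 called, and pericentral genes a median of -0.14 with 1 of 8 called. Stellate cell markers had a median of 0.097 and the 5 tested cholangiocyte markers a median of -0.23, with none called in either list. Of the 6 adipocyte markers, *Lep* and *Retn* were at 0 in both libraries and *Adipoq* and *Plin1* at 0 against 2.01. *Cfd* was at 0 against 8.05 normalized reads, and *Cidec* alone passed the minimum and was called higher, at 17.9 against 108 normalized reads (log2 fold change 2.35). In a bulk sample, fewer cells of a type and less RNA per cell cannot be told apart, and the part of these differences in the cholesterol genes was not tested.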

How the data were processed

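Liver mRNA of 1 control and 1 iFIRKO sample was sequenced from stranded TruSeq libraries. Per the file header and values, the authors deposited a log2 normalized read count for each symbol, with scaled counts of 1 or less listed at 0, and 62.2% of control rows and 62.1% of iFIRKO rows are at 0. The submitters' processing notes name the build mm10, while the aligner, counter and annotation are not given in the sources used here.

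The log2 values were made linear. The commonest low value, 1.99 normalized reads for control and 2.01 for iFIRKO, was treated as 1 read pair. Of values under 16 normalized reads, 49.3% and 48.0% were whole pairs within 0.01, so depths and intervals rest on estimates and no count test was run. The fold threshold of 1.5 follows the authors. A minimum CPM of 1 in either library and a pseudocount of a CPM of 0.1 were used, and genes at 3 pairs or fewer in a library were given no fold. Lists are described by counts and medians beside all genes tested. All 27 genes were named, with Insr, Srebf1 and, in each related list, up to 3 genes by level and 3 by absolute fold. The genes and lists were chosen with earlier results of these data known. Some further genes of sterol metabolism are not reported here. Positions and lengths came from GENCODE M21 (GRCm38). The calls and intervals were tested on simulated data with counting error alone, for genes well above the minimum. Variation between mice and the genes of the set at lower levels were not covered. Those genes are *Mvk* and *Abcg8*, both called lower, and *Mvd*, *Ggps1*, *Soat2* and *Abcg5*. Software was matplotlib 3.10.9, pandas 2.3.3, numpy 2.4.6 and scipy 1.17.1 under Python 3.11.15. Alternatives covered the pseudocount, the minimum, the scaling, repeated symbols, the fold threshold and the sterol element searched.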

Additional observations from a re-analysis of the deposited data

How the results depend on the processing

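The 10 lower genes of the set were also called under every alternative pseudocount, minimum, scaling and treatment of repeated symbols, and none of the 17 other genes was. No single-gene value left its interval in 243 comparisons. Changing the minimum or summing repeated symbols could not alter these values, since all 27 genes passed each minimum and none had a repeated symbol. The scalings shifted all genes almost alike. With a fold above 2 and the main settings otherwise, 0 of the 27 were lower. *Abcg8* lay at that line, so its place depended on the setting. Its log2 fold change was -0.996 in the main setting and -0.960 with a pseudocount of a CPM of 1. It was -1.0004 as a plain ratio and -1.02 with upper-quartile scaling. The summed enzyme log2 ratio moved from -0.55 to -0.57 with upper-quartile scaling. The number of all genes lower and higher depended on low levels and on the threshold: 576 and 371 with a pseudocount of a CPM of 1, 2620 and 1960 without a minimum, 440 and 288 with a minimum CPM of 5, and 267 and 209 with a fold above 2, against 976 and 597. The sterol element was found in 4 genes in the loose form TCACNNCAC against 1 in the strict form. Median-ratio and upper-quartile scaling placed the median of all genes at -0.0031 and -0.014. No paired analysis was possible because a single library stands for each genotype. The intervals leave out variation between mice, which these libraries cannot show, and *Ggps1*, at 194 control read pairs, had the fewest reads of the set.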

Other observations

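Bile acid synthesis, the main route by which cholesterol is broken down, was mixed. Of 12 genes 3 were called lower and 1 higher, beside 7.28% and 4.46% of all genes tested, and the median log2 fold change was -0.020. *Cyp27a1*, the sterol 27-hydroxylase of the acidic route, was lower at 22578 against 13527 normalized reads (log2 fold change -0.74, interval -0.78 to -0.70) in control against iFIRKO. *Cyp7b1*, the next hydroxylase of that route, was lower at 7069 against 3409 normalized reads (log2 fold change -1.05, interval -1.14 to -0.97). *Cyp7a1*, the rate-limiting enzyme of the classic route and the remaining lower gene, is named after its value was seen and stood at 6698 against 4351 normalized reads (log2 fold change -0.62, interval -0.70 to -0.54). The higher gene was *Scp2*, a sterol carrier and peroxisomal thiolase, at 56525 against 100088 normalized reads (log2 fold change 0.82, interval 0.80 to 0.85). *Akr1c6* was at -0.069 (28507 against 27183) and *Slc27a5*, a bile acid CoA ligase, at -0.25 (35480.4 against 29899).

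Enzymes that use isoprenoids from the mevalonate pathway for products other than sterol differed little. None of 11 was called, where 7.28% of all genes tested were called lower and 4.46% higher. Of the 11 genes, 10 had a log2 fold change above 0, and the median was 0.088. *Pdss2*, which builds the side chain of coenzyme Q, stood at 396 against 541 normalized reads (log2 fold change 0.44, interval 0.18 to 0.72), and its partner *Pdss1* at 128 against 178 normalized reads (log2 fold change 0.46, interval 0.015 to 0.98). *Pggt1b*, a subunit of geranylgeranyl transferase, was at 0.35 (232 against 297). The most abundant by reads, *Nus1*, *Icmt* and *Rabggtb*, had log2 fold changes of -0.017, 0.088 and 0.0085.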
